A study of Mus musculus with 12 samples.

Results

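The ascending aorta of Fbn1 mutant mice was compared with that of wild-type mice in the animals that had received no tamoxifen, across all annotated genes of the array. The comparison used 6 of the study's 12 arrays, 3 of each genotype, chosen by the genotype and the word Control in their titles. All 6 came from mice that carried Myh11-CreERT2, a tamoxifen-dependent Cre driven by the promoter of the smooth muscle myosin gene Myh11, and floxed alleles of Tgfbr2, which encodes receptor type II for TGF-beta. Each animal received corn oil by intraperitoneal injection for 5 days from 4 weeks of age, and its ascending aorta was analysed at 6 weeks. Wild-type controls (Myh11-CreERT2.Tgfbr2f/f) had intact Fbn1. Mutant controls (Fbn1C1039G/+.Myh11-CreERT2.Tgfbr2f/f) carried 1 copy of the C1039G allele beside a wild-type copy. The other 6 arrays, again 3 of each Fbn1 genotype, came from mice given 1 mg of tamoxifen on the same schedule and are labelled knockouts. They are called knockouts here by that label alone, since the level of Tgfbr2, given below, did not separate them from the controls. They served to estimate the spread between arrays and as a second measurement of the mutation in different arrays.

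Fibrillin-1, the protein of Fbn1, forms the microfibrils that surround and scaffold elastin in elastic fibres, and these microfibrils also bind latent TGF-beta through its carrier proteins. Mutations of the human gene cause Marfan syndrome, in which the root and ascending part of the aorta widen and can tear, and C1039G, which replaces a cysteine of fibrillin-1, is a widely used mouse model of it. Smooth muscle cells of the aortic media make and maintain the elastic fibres and much of the collagen of the wall, and TGF-beta is a known inducer of many matrix genes in them.

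The labels name neither the strain nor the time of day of collection, and do not say that replicate arrays stand for separate animals, so the p-values reflect only how far these samples differ, which may be technical. In whole tissue, fewer cells of a type and less RNA per cell cannot be told apart. Median intensity lay between 301 and 334 per array, and correlations of log2 values were 0.993 to 0.996 within the control groups and 0.988 to 0.993 between them. All values below are log2 intensities in arrays 1, 2 and 3 of a group, differences are mutant minus wild-type on the log2 scale with their standard error (n = 3 arrays a group), and a gene was called where its adjusted p was under 0.05. Smooth muscle identity was plain in every array: the actin Acta2 read 14.53, 14.53 and 14.55 in the wild-type arrays and 14.60, 14.60 and 14.59 in the mutant arrays, with an adjusted p of 0.363. Myh11 (-0.098), Tagln (-0.012), Cnn1 (0.062) and Myocd (-0.13) were not called either. Mutant control 3 stood apart in some brown fat genes. Ucp1, the uncoupling protein of brown fat, was at 8.58 against 6.75 to 6.88 in the other 5 arrays, and Cox8b at 9.58 against 7.76 to 8.36. Cidea stood less far off, at 9.60 against 8.64 to 9.31, and Elovl3 lay among the others, at 6.45 against 6.33 to 6.46. Ucp1 and Elovl3 were under the filter and were not tested. The summed intensity of 29 adipocyte genes ran from 32926 to 38160 in wild-type and from 29812 to 44226 in mutant arrays, and without mutant control 3 there were 857 genes called in place of 970.

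Fbn1 has no probe set of its own in the annotation and was not analysed here, so the mutated gene could not be used as a check of the labels. Tgfbr2 read 11.96, 11.96 and 11.94 in the wild-type arrays and 12.04, 11.98 and 11.95 in the mutant arrays. The ranges overlapped, with a difference of 0.038 ± 0.052 and an adjusted p of 0.702. An exact two-sided permutation test over the 20 assignments of the 6 arrays gave p = 0.3, where 0.1 is the smallest p it allows. In the arrays labelled knockout, Tgfbr2 read 11.88, 11.95 and 11.79 in wild-type and 12.05, 12.07 and 11.98 in mutant mice. The mean of the wild-type knockouts was 11.87 ± 0.081 (SD, n = 3) against 11.95 ± 0.012 in wild-type controls, and that of the mutant knockouts was 12.03 ± 0.052 against 11.99 ± 0.044 in mutant controls. Both pairs of ranges overlapped, so the level of the targeted gene did not separate knockouts from controls. Whether its probes lie in the deleted part is not given in the sources used here, so this level checks the label in neither direction, and every statement on knockouts below rests on the label.

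Of 14944 genes tested, 970 (6.49%) differed between mutant and wild-type controls. In the mutant, 473 (3.17%) were higher and 497 (3.33%) lower. Differences were small: their median size over the called genes was 0.313 on the log2 scale, and 12 genes were higher and 13 lower by at least 2-fold. The median over all genes tested was -0.0234. The 3 arrays of each group did not overlap in 967 of the 970, and over all genes they did not overlap in 28.1%, with the mutant above in 11.4% and below in 16.6%. At an unadjusted p under 0.05 there were 3544 genes. At the threshold, the last gene called was Mettl24 (-0.25, adjusted p 0.049997) and the first not called was Prkar2a (-0.17, adjusted p 0.0504).

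The share of members called differed between the gene lists. Cell division genes, clock genes of the Per and Dbp phase, fibrillar collagens and the list of basement membrane components and network collagens held the largest shares of increases among 37 lists of genes with a known role, and heat shock genes the largest share of decreases. Immediate early, ERK feedback, interferon-induced, endothelial and adipocyte lists, among others, held none. The lists were drawn up with earlier results of these data known, so their counts describe the groups and were not tested.

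**Figure D1:**
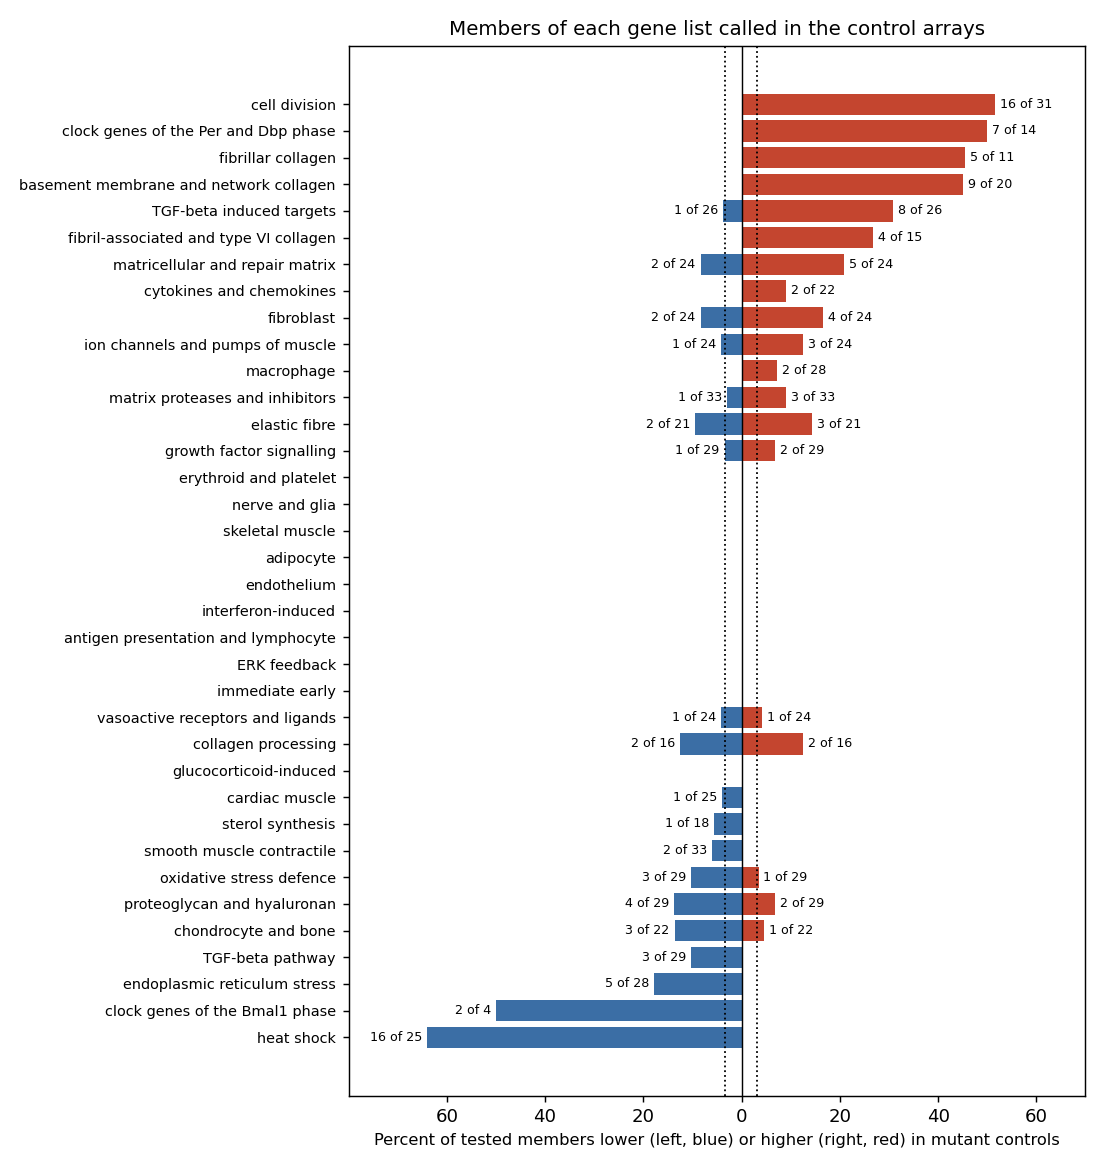
Percent of the tested members of each gene list called lower (left, blue) or higher (right, red) in mutant controls, with the counts beside the bars. The dotted lines mark the shares over all 14944 genes, 3.33% lower and 3.17% higher, and the longest bars are heat shock on the left, 16 of 25, and cell division on the right, 16 of 31.

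Several matrix genes that TGF-beta is known to induce were higher in mutant controls. Tenascin C (Tnc), a matricellular protein of remodelling tissue, read 9.58, 9.92 and 10.02 in the wild-type arrays and 11.48, 11.18 and 11.31 in the mutant arrays. No mutant array came near the wild-type range, and the difference was 1.49 ± 0.13, a 2.80-fold increase with an adjusted p of 0.00012. Of 26 tested genes of the TGF-beta target list 8 rose and 1 fell (34.6% against 6.49% of all genes called), with a median of 0.163 against -0.0234 over all genes. Of the 26 differences 15 were above 0 and 11 below, the lowest at -0.641 in a gene that was not called. The mutant arrays lay wholly above the wild-type arrays in 11 and wholly below in 3, where 11.4% of all genes lay above and 16.6% below. In knockouts none of the 26 was called higher and 6 were called lower (median -0.0257), where 2.8% of all genes were higher and 3.16% lower. The collagen gene Col1a1 rose by 0.68 ± 0.070, the sphingosine kinase Sphk1 by 0.40 ± 0.064, the matricellular Ccn4 by 0.60 ± 0.11 and periostin (Postn) by 0.23 ± 0.043. The follistatin-like Fstl1 (0.22 ± 0.051), fibronectin (Fn1, 0.24 ± 0.061) and the transcription repressor Bhlhe40 (0.76 ± 0.21), which also belongs to the clock genes below, completed the 8. The decrease was that of Ccn2, the connective tissue growth factor often used as a TGF-beta readout, named here after its values were seen. Ccn2 read 14.36, 14.39 and 14.27 in the wild-type arrays and 13.85, 14.00 and 14.24 in the mutant arrays, a difference of -0.31 ± 0.085 with an adjusted p of 0.0472, and its call was lost when any 1 of 11 of the 12 arrays was left out (adjusted p 0.0506 to 0.155). Single arrays also decided Fstl1 (adjusted p 0.0642 to 0.0999 without wild-type control 1 or 2 or mutant control 1 or 2), Fn1 (up to 0.119, 5 of the 6 control arrays) and Bhlhe40 (up to 0.17, likewise 5 of 6).

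The elastic fibre genes moved in both directions, 3 higher and 2 lower of 21 tested (23.8% against 6.49% of all genes called, median 0.0582). Elastin (Eln) read 13.48, 13.57 and 13.81 in the wild-type arrays and 14.49, 14.39 and 14.23 in the mutant arrays. The lowest mutant array stood above the highest wild-type array by more than the wild-type arrays differed among themselves, and the difference was 0.75 ± 0.096, a 1.68-fold increase (adjusted p 0.00121). The microfibril-associated glycoprotein gene Mfap2 rose by 0.66 ± 0.11 (adjusted p 0.00487) and the cross-linking enzyme Loxl1 by 0.22 ± 0.059. The cross-linking enzyme Loxl3 fell (-0.20 ± 0.052), and so did Adamtsl2 (-0.37 ± 0.090), whose protein binds microfibrils. Calls of Loxl1, Loxl3 and Adamtsl2 were each lost without wild-type control 1 or 2 or mutant control 1 or 2, among others, with adjusted p up to 0.133, 0.168 and 0.132. Fbn2, the fetal fibrillin, was at 7.29, 7.25 and 7.37 in the wild-type arrays and 7.36, 7.33 and 7.39 in the mutant arrays and was not called (adjusted p 0.566).

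Collagens rose together wherever they passed the test. Of 11 fibrillar collagen genes 5 rose and none fell (45.5% against 6.49% of all genes called, median 0.143). Besides Col1a1, at 13.10, 13.11 and 13.30 in the wild-type arrays and 13.97, 13.82 and 13.75 in the mutant arrays, these were Col3a1 (0.56 ± 0.076), Col5a2 (0.41 ± 0.063), Col1a2 (0.33 ± 0.057) and Col5a1 (0.38 ± 0.075), with adjusted p between 0.000333 and 0.0128. Their mutant and wild-type arrays did not overlap, and all 5 remained called when any single array was left out. In the basement membrane, the sheet around each smooth muscle cell, 9 of 20 genes (45%) rose and none fell (median 0.238). The largest of the 6 named was the nidogen Nid2 at 0.52 ± 0.069, followed by the type IV collagen Col4a5 at 0.46 ± 0.051, Col15a1 at 0.43 ± 0.073 and Col4a1 at 0.42 ± 0.071. Col4a2 (0.34 ± 0.078) and the laminin Lamb1 (0.24 ± 0.053) were called less firmly, and both calls were lost without wild-type control 1 or mutant control 2, among others (adjusted p up to 0.0776 and 0.0903). The basement membrane count was 5 without wild-type control 1 or 2 or mutant control 1 or 2, and 5 when the 6 control arrays were fitted alone.

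Of 15 fibril-associated and type VI collagens 4 rose (26.7% against 6.49% of all genes called). They were Col14a1 (0.38 ± 0.057), Col6a3 (0.42 ± 0.083), Col12a1 (0.57 ± 0.12) and Col6a6 (0.31 ± 0.079). Without wild-type control 2 the last 3 missed the threshold, Col6a3 at 0.0503. The defining type VI genes Col6a1 and Col6a2 lay at 0.18 and 0.12 and were not called. Enzymes that process collagen split. The prolyl 3-hydroxylase P3h1 (0.29 ± 0.054) and Pcolce (0.32 ± 0.065), which aids removal of the collagen propeptide, rose, and the prolyl 4-hydroxylases P4ha1 (-0.45 ± 0.086) and P4ha2 (-0.32 ± 0.076) fell. Pcolce missed the threshold without wild-type control 2 (0.0537) and P4ha2 without wild-type control 3 or mutant control 1 or 2 (0.0854 to 0.111).

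Proteoglycans moved both ways, 2 higher and 4 lower of 29 (20.7% against 6.49% of all genes called, median -0.0723). Versican (Vcan), the large hyaluronan-binding proteoglycan of the media, read 11.66, 11.35 and 11.38 in the wild-type arrays and 10.75, 10.72 and 10.93 in the mutant arrays, without overlap, a difference of -0.67 ± 0.081 (adjusted p 0.000848). The membrane-bound Gpc1 (-0.40 ± 0.061), osteomodulin (Omd, -0.48 ± 0.13) and Prelp (-0.19 ± 0.050) fell, and fibromodulin (Fmod, 0.50 ± 0.11) and podocan (Podn, 0.27 ± 0.074), both small leucine-rich proteoglycans, rose. Aggrecan (Acan) read 10.95, 11.39 and 10.85 in the wild-type arrays and 11.50, 11.43 and 11.34 in the mutant arrays, and its overlapping groups were not called (adjusted p 0.289). Calls of Omd, Podn and Prelp were each lost without mutant control 1 or 2, among others (up to 0.181), and that of Fmod without wild-type control 3 or mutant control 2 (0.0501 to 0.0579). Among 24 matricellular genes 5 rose and 2 fell (29.2% against 6.49% of all genes called). Beyond those already given, Sparc, a collagen-binding glycoprotein, rose by 0.17 ± 0.042, with its call lost without any 1 of the 6 control arrays (0.0594 to 0.123). Its relative Sparcl1 fell by 0.36 ± 0.043, from 13.52, 13.54 and 13.51 to 13.13, 13.19 and 13.16 (adjusted p 0.000814).

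Of 33 proteases and inhibitors 3 rose and 1 fell (12.1% against 6.49% of all genes called). Cathepsin K (Ctsk), a collagen- and elastin-degrading protease, read 9.97, 10.09 and 10.08 in the wild-type arrays and 10.67, 10.74 and 10.62 in the mutant arrays, a rise of 0.63 ± 0.052 (adjusted p 9.32e-05). The membrane-type metalloproteinases Mmp14 (0.36 ± 0.077) and Mmp16 (0.28 ± 0.060) rose, and the gelatinase Mmp9 fell (-0.33 ± 0.081), each with its call lost without several single control arrays (up to 0.0833, 0.0711 and 0.135). Mmp2 did not overlap, at 12.89, 12.90 and 13.07 in the wild-type arrays and 13.15, 13.19 and 13.20 in the mutant arrays, and narrowly missed the threshold (adjusted p 0.0668). Adamts12, a metalloproteinase of the thrombospondin-motif family, was outside that list. It read 8.78, 8.68 and 8.87 in the wild-type arrays and 10.24, 10.30 and 9.87 in the mutant arrays, a 2.57-fold increase (1.36 ± 0.10, adjusted p 3.36e-05).

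Cell division genes were higher in mutant controls: 16 of 31 tested members rose and none fell (51.6% against 6.49% of all genes called), with a median of 0.307. Cyclin A2 (Ccna2), which drives DNA replication and entry into mitosis, read 7.76, 7.66 and 7.98 in the wild-type arrays and 9.47, 9.09 and 8.89 in the mutant arrays. The mutant arrays stood clear of the wild-type arrays, at 1.35 ± 0.18, a 2.54-fold increase (adjusted p 0.00169). Mki67, the proliferation antigen, rose by 1.14 ± 0.17, cyclin B2 (Ccnb2) by 1.12 ± 0.14 and the topoisomerase Top2a by 0.91 ± 0.16. The spindle motor Kif11 rose by 0.78 ± 0.13, the spindle protein Nusap1 by 0.76 ± 0.13 and Foxm1, a transcription factor of the G2 phase, by 0.61 ± 0.10. The wild-type control mean of Nusap1 was 7.22, under the filter of 7.31, so it was tested only through the other groups. That of Top2a was near the filter, at 7.38. In 23 of the 31 the mutant arrays all lay above the wild-type arrays, where 11.4% of all genes did. Mutant control 1 was the highest of the 6 for Ccna2, Mki67, Ccnb2, Top2a, Kif11, Nusap1 and Foxm1. When genes under the median intensity were left out, which removes members from the test, 7 members were called, and without mutant control 1 there were 10.

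Knockouts of both genotypes lay nearer to the mutant controls than to the wild-type controls for Ccna2, Mki67, Ccnb2, Top2a, Kif11 and Foxm1. Ccna2 read 9.57, 9.48 and 9.80 in the wild-type knockouts and 9.78, 9.51 and 9.01 in the mutant knockouts, which overlapped, and their difference of -0.18 ± 0.18 was not called (adjusted p 0.628). The mutation's difference in controls minus that in knockouts was 1.53 ± 0.26 (adjusted p 0.012). Of the 31 members 9 were called in this test, all more positive in controls, and 1 was called in the knockouts, lower. Over all genes the test called 221 (1.48%), 161 (1.08%) more positive and 60 (0.401%) more negative in controls.

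Several matrix genes differed less in the knockouts as well. Tnc in knockouts read 10.06, 10.25 and 10.34 in the wild-type knockouts and 10.84, 10.43 and 10.76 in the mutant knockouts, not called at 0.46 ± 0.13 (adjusted p 0.0552), and its 2 differences differed by 1.02 ± 0.18 (adjusted p 0.0162). Eln read 14.08, 14.01 and 14.11 in the wild-type knockouts and 13.92, 14.00 and 13.72 in the mutant knockouts, not called, and the differences differed by 0.94 ± 0.14 (adjusted p 0.00537). The same test called Col1a1 (0.57), Col3a1 (0.64), Col5a2 (0.60), Ctsk (0.81) and Col14a1 (0.41). Col4a5 and Col15a1 were higher in the mutant among controls and lower among knockouts, by -0.30 (adjusted p 0.00468) and -0.36 (adjusted p 0.0118), and their differences differed by 0.76 and 0.79. For Mfap2 (0.41, adjusted p 0.213) and Col4a1 (0.36, adjusted p 0.105) the test missed the threshold.

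**Figure D2:**
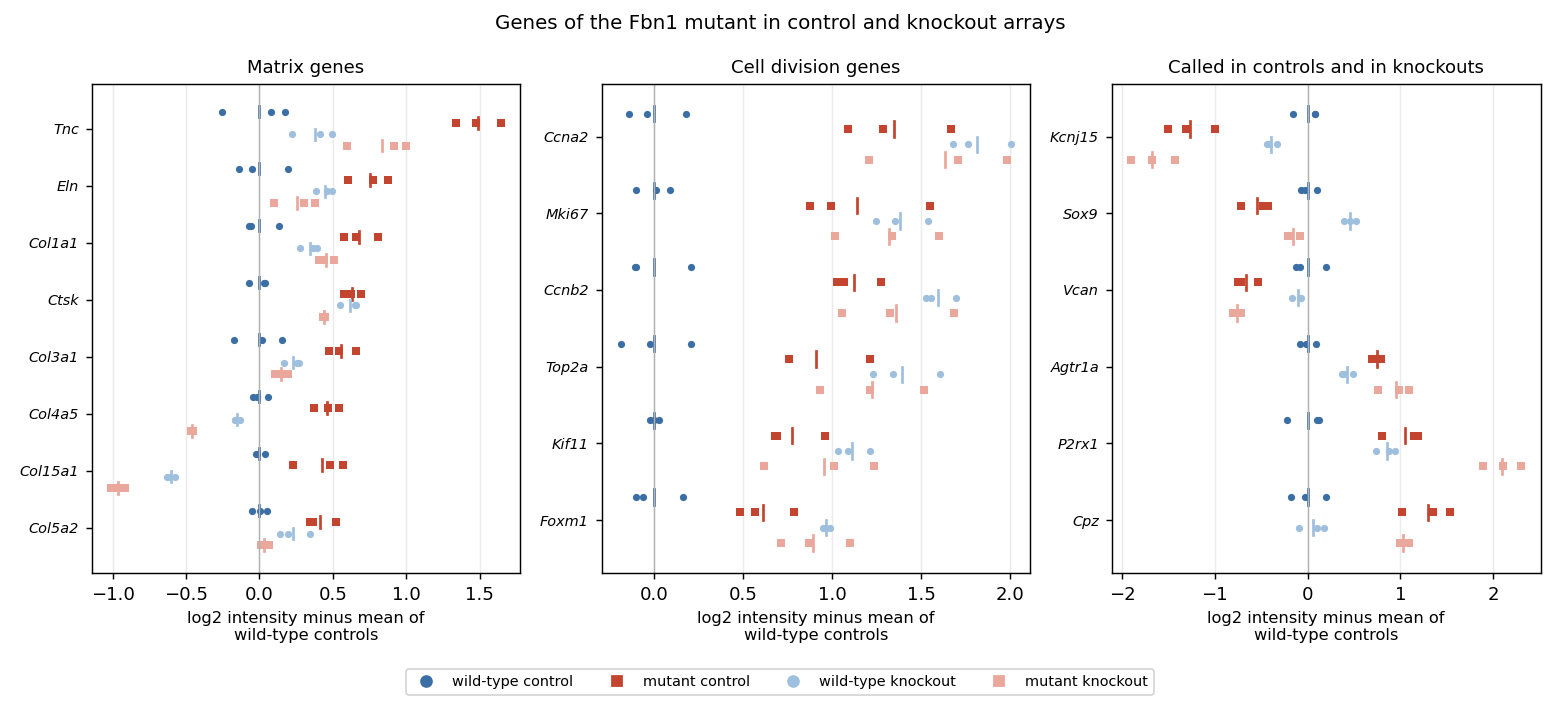
Log2 intensity of named genes in each of the 12 arrays, minus the mean of the wild-type controls, for matrix genes (left), cell division genes (middle) and genes called in both controls and knockouts (right). Circles are wild-type and squares mutant arrays, dark for controls and light for knockouts, short bars mark group means of 3 arrays, and for Ccna2 only the wild-type controls lie near 0 while the mutant controls reach 9.47, 9.09 and 8.89 in log2 intensity.

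Among the 15 largest increases were further genes outside the lists above. C1qtnf6, a secreted protein of the C1q and TNF family, had the smallest adjusted p named here: it read 9.53, 9.55 and 9.65 in the wild-type arrays and 10.57, 10.72 and 10.56 in the mutant arrays, a difference of 1.04 ± 0.058 (adjusted p 4.33e-06). In knockouts the difference was 0.027, and the 2 differed by 1.01 ± 0.083 (adjusted p 0.000181). Carboxypeptidase Z (Cpz), which cleaves extracellular peptides and binds Wnt proteins, rose 2.46-fold (1.30 ± 0.12). P2rx1, the ATP-gated cation channel of smooth muscle, rose by 1.05 ± 0.13, and gamma-synuclein (Sncg) by 0.95 ± 0.10. Those 3 also rose in knockouts, by 0.97, 1.25 and 0.63.

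The largest named decrease was that of Faim2, an inhibitor of Fas-mediated cell death, at 9.74, 9.26 and 10.06 in the wild-type arrays and 8.38, 8.23 and 8.49 in the mutant arrays (-1.32 ± 0.15, adjusted p 0.000633). Kcnj15, an inwardly rectifying potassium channel, read 12.32, 12.32 and 12.08 in the wild-type arrays and 11.25, 10.74 and 10.93 in the mutant arrays, with no overlap, and fell by 1.27 in controls and by 1.28 in knockouts. Bmp3, an antagonist within the BMP family, fell 2.36-fold (-1.24 ± 0.14) and the Wnt inhibitor Wif1 by 1.04 ± 0.15. The receptor Gpr165 (-1.18), Gmnc, a regulator of multiciliated cells (-1.08), Ccdc85a (-1.05) and the secreted Fibin (-1.01) fell as well. The calcium channel subunit Cacna2d3 (-0.91), the potassium channel Kcnc4 (-1.05 ± 0.077) and the small GTPase relative Rasl10b (-1.04 ± 0.13) complete the named decreases apart from Nnt, Nfil3, Hsph1 and Hspa1a. Besides Kcnj15, these also fell in knockouts: Gmnc (-1.12), Ccdc85a (-1.05), Wif1 (-0.87), Gpr165 (-0.61), Bmp3 (-0.53), Cacna2d3 (-0.46) and Fibin. Faim2 was not called there (-0.44, adjusted p 0.124). Neither were Kcnc4 and Rasl10b, and their differences in controls minus those in knockouts were -0.84 (adjusted p 0.00309) and -0.87 (adjusted p 0.0386).

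Nnt, the mitochondrial transhydrogenase that supplies NADPH, read 11.29, 11.72 and 11.21 in the wild-type arrays and 10.41, 10.30 and 10.30 in the mutant arrays, a difference of -1.07 ± 0.24 (adjusted p 0.021). In the knockouts it read 11.10, 10.33 and 10.37 in the wild-type knockouts and 11.32, 10.48 and 10.41 in the mutant knockouts, so that array 1 of each knockout genotype stood with the wild-type controls and the other 4 with the mutant controls. Inbred mouse substrains are known to differ by a deletion within Nnt. The strain of each animal is not given in the labels, and genotype and strain background cannot be told apart for this gene. Its call was lost without wild-type control 2 or mutant control 1 or 2 (adjusted p 0.052 to 0.0796).

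Clock genes differed as a pair of opposed groups. The circadian clock turns on CLOCK and BMAL1, which activate the Per, Cry, Nr1d1 and Dbp genes through E-box sequences. The products of the Per, Cry and Nr1d1 genes repress the activators in turn, and Per and Dbp transcripts peak at another time of day than Bmal1 (Arntl here). Of 14 genes of the Per and Dbp phase 7 rose and none fell, with a median of 0.332. Of 4 genes of the Bmal1 phase 2 fell and none rose, with a median of -0.523. Each is 50% of its list against 6.49% of all genes called. Such transcripts follow the time of day, and the labels give no time of collection, so genotype and collection time cannot be told apart.

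Sequences that clock factors bind were searched in the promoters of these genes. For 4 members called here, stretches of the RefSeq promoters (GRCm38.p6, 250 bases before the gene start) are printed 5′ to 3′ on the gene's strand, with the motif in capitals. The motifs searched on both strands were the E-box CACGTG, the D-box TTATGTAA bound by DBP and NFIL3, and the element TAGGTCA bound by NR1D1 and ROR proteins. Ciart and Bhlhe41 hold an E-box, Per3 a D-box, and Nfil3 the TAGGTCA element, which reads TGACCTA on the gene's strand.
Ciart chr3:95882299-95882384 (-): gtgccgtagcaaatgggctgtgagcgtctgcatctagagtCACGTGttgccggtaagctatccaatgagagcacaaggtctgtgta
Bhlhe41 chr6:145865528-145865613 (-): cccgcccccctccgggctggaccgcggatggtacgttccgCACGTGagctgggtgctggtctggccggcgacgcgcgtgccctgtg
Per3 chr4:151044823-151044910 (-): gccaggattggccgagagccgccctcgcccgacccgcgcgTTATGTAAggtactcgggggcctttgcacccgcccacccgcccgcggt
Nfil3 chr13:52981040-52981091 (-): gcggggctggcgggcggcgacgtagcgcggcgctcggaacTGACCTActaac

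An E-box lay in the windows of 4 of the 11 Per and Dbp phase genes that have one in the table (36.4%) and in 6.86% of 27025 genes. The D-box lay in 1 of the 11 (9.09%) and in 0.977% of all genes, and the TAGGTCA element in none of the 11 and in 2.55% of all genes. In the Bmal1 phase, 1 of 4 genes held an E-box and 1 of 4 the TAGGTCA element. A match is a stretch of letters and says nothing of binding, and a window without one says nothing of the factor.

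Ciart, a repressor of CLOCK and BMAL1, showed the largest increase of all the named genes. It read 10.43, 10.38 and 9.08 in the wild-type arrays and 11.90, 11.80 and 11.46 in the mutant arrays, and the difference was 1.76 ± 0.35, or 3.38-fold (adjusted p 0.0129). Nr1d1, the heme-binding repressor REV-ERB alpha, read 12.28, 12.63 and 12.57 in the wild-type arrays and 13.83, 13.80 and 13.19 in the mutant arrays, a difference of 1.11 ± 0.23 (adjusted p 0.017). Dbp, a transcription factor that binds the D-box, read 11.65, 11.80 and 11.58 in the wild-type arrays and 12.66, 12.64 and 12.48 in the mutant arrays, a difference of 0.92 ± 0.13 (adjusted p 0.00273). The last was called under each array left out, while Ciart was lost without mutant control 2 (adjusted p 0.0544) and Nr1d1 without wild-type control 1 or mutant control 1 or 2 (0.0543 to 0.0782).

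The repressor Bhlhe41 rose by 1.02 ± 0.21, and its call was lost without mutant control 1 or 2 (adjusted p 0.0574 to 0.0758). The clock gene Per3 and Tef, a relative of Dbp, rose by 0.29 ± 0.076 and 0.20 ± 0.055. Both calls were lost without any 1 of the 6 control arrays (up to 0.12 and 0.127). Leaving out mutant control 2 kept 1 call of this phase, mutant control 1 kept 2, wild-type control 1 kept 3 and any other array 4 to 7. Per1, the light-responsive period gene, read 11.96, 11.95 and 11.12 in the wild-type arrays and 12.23, 12.30 and 12.32 in the mutant arrays and did not pass (adjusted p 0.0793), with wild-type control 3 again low. Wee1 (0.37), Nr1d2 (0.28) and Hlf (0.12) likewise had all mutant arrays above the wild-type arrays without passing. Per2 (-0.18), Cry2 (-0.046) and Usp2 (-0.055) overlapped and were not called.

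In the opposite phase, Nfil3, a repressor that competes with DBP, read 9.55, 9.71 and 9.40 in the wild-type arrays and 7.92, 8.25 and 8.75 in the mutant arrays, a difference of -1.25 ± 0.23 (adjusted p 0.00864). Clock itself read 11.14, 11.02 and 11.07 in the wild-type arrays and 10.74, 10.68 and 10.62 in the mutant arrays, a smaller but tighter difference of -0.40 ± 0.056 (adjusted p 0.00221). Arntl, the gene of BMAL1, read 7.98, 7.83 and 8.19 in the wild-type arrays and 7.75, 7.62 and 7.72 in the mutant arrays (adjusted p 0.256), and Cry1 read 9.53, 9.61 and 9.46 in the wild-type arrays and 8.52, 8.71 and 9.42 in the mutant arrays (adjusted p 0.102). In both the mutant arrays lay below the wild-type arrays without passing, and mutant control 3 was the mutant array nearest to the wild-type in Nfil3 and Cry1.

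Heat shock genes, the chaperones and co-chaperones that HSF1 induces when proteins unfold or body temperature rises, were lower in mutant controls: 16 of 25 fell and none rose, with a median of -0.344. The calls made up 64% of the list, against 6.49% of all genes. All 25 differences were below 0. In 18 the mutant arrays lay wholly below the wild-type arrays, where 16.6% of all genes did. HSF1 binds inverted repeats of GAA, and the pair TTCNNGAA or GAANNTTC was found in the windows of 9 of 21 members (42.9%) and of 14.5% of all genes. The stretches below, shown for members called here, carry it in capitals, with overlapping or neighbouring pairs for Hspd1 and Dnaja4.
Hsph1 chr5:149636337-149636409 (-): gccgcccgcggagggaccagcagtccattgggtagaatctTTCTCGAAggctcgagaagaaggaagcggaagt
Hspd1 chr1:55088029-55088116 (-): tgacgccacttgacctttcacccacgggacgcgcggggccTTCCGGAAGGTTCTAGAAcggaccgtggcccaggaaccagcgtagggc
Hspa1a chr17:34972213-34972300 (-): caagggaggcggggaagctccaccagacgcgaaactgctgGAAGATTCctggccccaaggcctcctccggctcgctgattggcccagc
Dnaja4 chr9:54699429-54699516 (+): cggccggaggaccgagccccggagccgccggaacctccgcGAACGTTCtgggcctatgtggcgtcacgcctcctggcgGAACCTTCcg

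Hsph1, the HSP110 chaperone, read 11.42, 11.53 and 11.54 in the wild-type arrays and 10.10, 10.38 and 10.45 in the mutant arrays. All mutant arrays were lower by more than the spread of either group, a difference of -1.19 ± 0.11 (adjusted p 0.000126). Hspa1a, the stress-inducible HSP70, read 12.36, 12.74 and 12.22 in the wild-type arrays and 10.97, 11.66 and 11.82 in the mutant arrays, with mutant control 1 the lowest, a difference of -0.95 ± 0.19 (adjusted p 0.0127). A second probe set that Hspa1a shares with its near-identical neighbour Hspa1b differed by -0.99, and the 2 genes cannot be told apart there. Hspa4l, a relative of HSP110, read 10.01, 10.19 and 10.40 in the wild-type arrays and 9.44, 9.45 and 9.34 in the mutant arrays, a difference of -0.79 ± 0.11 (adjusted p 0.00184).

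The inducible HSP90, Hsp90aa1, fell by 0.50 ± 0.072, and co-chaperones of HSP90 fell with it, among them Cacybp (-0.49 ± 0.076), Stip1 (-0.48 ± 0.078), Chordc1 (-0.44 ± 0.079), Fkbp4 (-0.40 ± 0.074), Ahsa2 (-0.34) and Ahsa1 (-0.26). The mitochondrial chaperonin Hspd1 fell by 0.34 ± 0.060, while its partner Hspe1, whose gene starts from the same stretch on the other strand, was at -0.16 and was not called. The DNAJ co-chaperones Dnaja1 (-0.35) and Dnaja4 (-0.30), the small heat shock protein Hspb8 (-0.33), Hspa4 (-0.18) and Hspa1l (-0.51), which lies beside Hspa1a, make up the 16. Hspb1 read 13.45, 13.75 and 13.83 in the wild-type arrays and 12.70, 13.12 and 13.50 in the mutant arrays and was not called (adjusted p 0.0716), and neither were Cryab (-0.077), Dnajb1 (-0.40), Dnajb4 (-0.22), Bag3 (-0.19), St13 (-0.24), Hsf2 (-0.10) and Hspa8 (-0.15). Between 12 and 16 members were called when single arrays were left out. Hspa1a was lost without wild-type control 2 (adjusted p 0.0503) and Dnaja4 without mutant control 1 (0.0561), and Hspa1l, Hspa4, Dnaja1 and Ahsa1 without several control arrays.

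Body temperature also sets the cold-induced RNA-binding genes Cirbp and Rbm3. Rbm3 read 12.96, 12.90 and 12.64 in the wild-type arrays and 13.02, 13.18 and 13.09 in the mutant arrays, with the mutant above and without passing (adjusted p 0.0602), and Cirbp overlapped, at 10.87, 10.74 and 10.44 in the wild-type arrays and 11.11, 11.20 and 10.70 in the mutant arrays (adjusted p 0.164). Both passed at an unadjusted p under 0.05. Glucocorticoids, which also cycle daily, induce Fkbp5 and Tsc22d3. Fkbp5 read 11.26, 10.96 and 10.27 in the wild-type arrays and 10.71, 10.29 and 11.14 in the mutant arrays and Tsc22d3 10.92, 10.71 and 9.85 in the wild-type arrays and 10.16, 10.25 and 10.97 in the mutant arrays, both overlapping widely. None of 19 glucocorticoid-induced genes was called by limma, and 4 had an unadjusted p under 0.05.

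**Figure D3:**
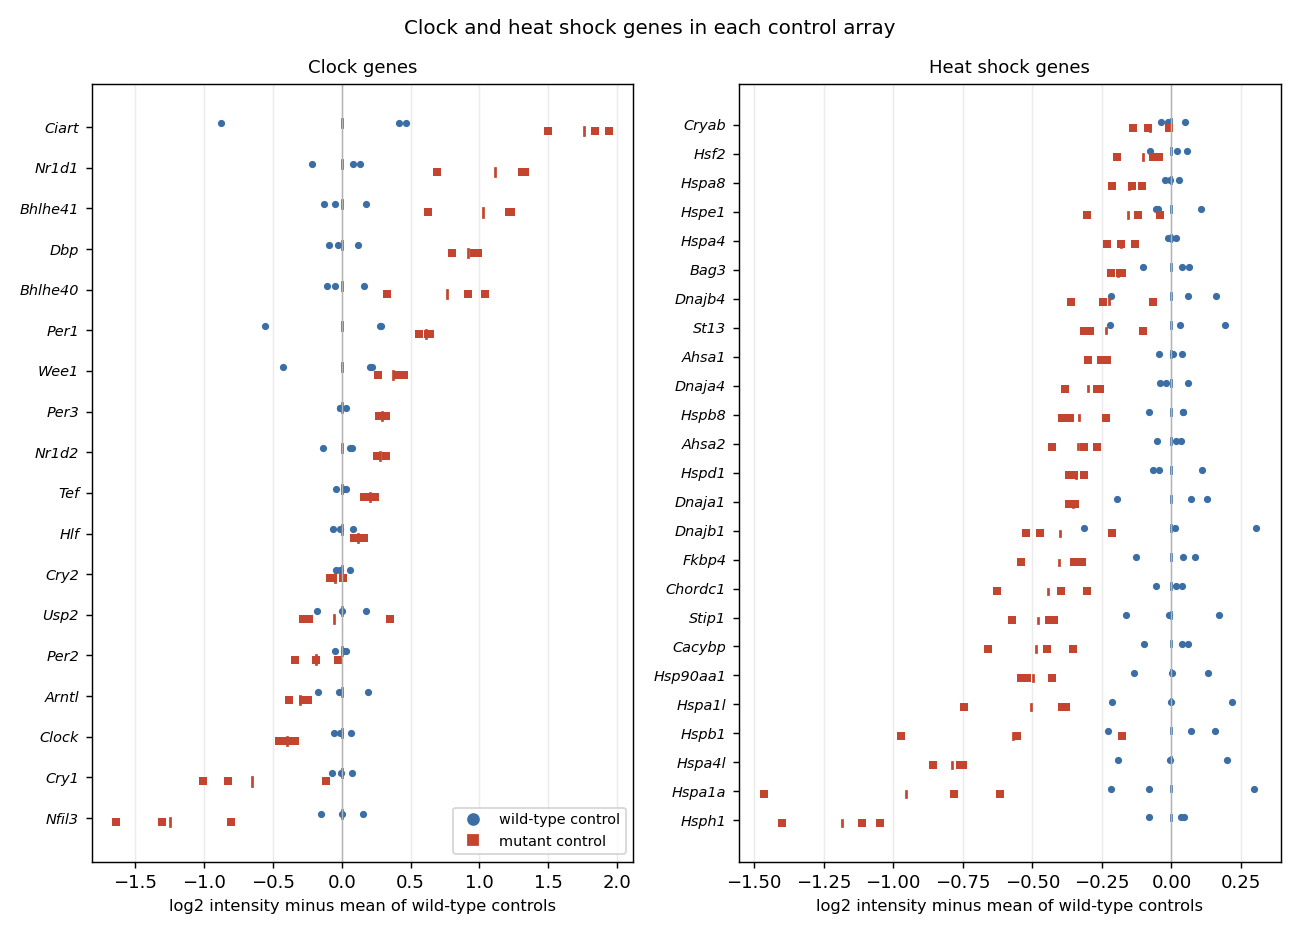
Log2 intensity of every tested clock gene (left) and heat shock gene (right) in each of the 6 control arrays, minus the mean of the wild-type controls. Blue circles are wild-type and red squares mutant arrays, bars mark means of 3, and the mutant squares lie right of the circles for Ciart, Nr1d1, Dbp and Bhlhe41 and left of them for Nfil3, Clock and Hsph1.

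The clock and heat shock differences appeared again in the knockouts, which are other arrays. There 8 genes of the Per and Dbp phase rose, 2 of the Bmal1 phase fell and 14 heat shock genes fell. Over all genes 890 (5.96%) were called in knockouts, 418 (2.8%) higher and 472 (3.16%) lower. Ciart in knockouts read 10.69, 10.54 and 9.66 in the wild-type knockouts and 12.02, 11.94 and 11.20 in the mutant knockouts, a difference of 1.42 ± 0.35 (adjusted p 0.0334), and Hsph1 differed by -1.12 ± 0.11 (adjusted p 0.000134). Dbp differed by 0.99, Nr1d1 by 1.20, Hspa4l by -0.71 and Hspd1 by -0.34. In no clock or heat shock gene did the test of the difference between controls and knockouts pass (adjusted p 0.0592 to 0.991), which does not show that the effects were alike.

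The scores of these lists separated the genotypes completely. The clock score, the mean centred level of the Bmal1 phase minus that of the Per and Dbp phase, ran from 0.387 to 0.672 in wild-type and from -0.839 to -0.354 in mutant controls, and the heat shock score from 0.142 to 0.202 and from -0.341 to -0.157. The array numbered 3 had the highest clock score in each of the 4 groups (0.672 and -0.354 in wild-type and mutant controls, 0.841 and -0.0627 in wild-type and mutant knockouts), and Ciart was lowest in it in each. With the clock score in the fit, 2 genes were called, C1qtnf6 and Kctd16, the median standard error grew from 0.0657 to 0.144, and 932 of the 970 kept their direction. With the heat shock score none was called by limma, 1304 genes had an unadjusted p under 0.05, the standard error was 0.175, and 828 of the 970 kept their direction. Because the scores do not overlap between the genotypes, these fits cannot tell the mutation from what moves the scores, for any gene given above or below.

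Of 29 genes of the TGF-beta pathway itself none rose and 3 fell, with a median of -0.0799. That is 10.3% of the list, against 6.49% of all genes called and 3.33% called lower. The type I receptor gene Tgfbr1 read 11.85, 11.81 and 11.61 in the wild-type arrays and 11.44, 11.41 and 11.42 in the mutant arrays, a difference of -0.33 ± 0.077 (adjusted p 0.0263). The ubiquitin ligase Smurf2, which degrades SMADs and receptors, fell by 0.19 ± 0.044, and the latent TGF-beta binding protein Ltbp4 by 0.19 ± 0.044. All 3 calls were lost without mutant control 1 or 2 or wild-type control 2, among others (up to 0.0941, 0.101 and 0.114). The ligands Tgfb1 (0.056, adjusted p 0.646) and Tgfb2 (0.044, adjusted p 0.837) overlapped.

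Contractile genes of smooth muscle were near level: 2 of 33 fell and none rose, with a median of -0.0163. The share was 6.06%, against 6.49% of all genes called and 3.33% called lower. Those 2 were desmin (Des), the intermediate filament of muscle, at 12.40, 12.44 and 12.27 in the wild-type arrays and 11.73, 11.88 and 12.09 in the mutant arrays (-0.47 ± 0.084), and the actin-binding Synpo2 at -0.22 ± 0.049, whose call was lost without 5 of the 6 control arrays (up to 0.0914). Smooth muscle intensity summed over 33 genes was 337410 to 338920 in wild-type and 330250 to 339000 in mutant arrays. Of 24 channels and pumps 3 rose and 1 fell (16.7% against 6.49% of all genes called). Apart from P2rx1 these were the T-type calcium channel Cacna1h (0.38 ± 0.062), the background potassium channel Kcnk3 (0.41 ± 0.11) and, lower, the large-conductance potassium channel Kcnma1 (-0.35 ± 0.087). Kcnk3 was lost without any 1 of the 6 control arrays (up to 0.165) and Kcnma1 without wild-type control 1 or 3 or mutant control 2 or 3 (0.0537 to 0.15).

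Of 24 vasoactive receptors and ligands 1 rose and 1 fell, which is 8.33% of the list against 6.49% of all genes. Agtr1a, the angiotensin II receptor, read 8.59, 8.53 and 8.69 in the wild-type arrays and 9.39, 9.36 and 9.29 in the mutant arrays, a clear separation of 0.75 ± 0.078 (adjusted p 0.000333), and it also rose in knockouts (0.53, adjusted p 0.00209). Npr1, the receptor of atrial natriuretic peptide, fell by 0.30 ± 0.073, with its call lost without wild-type control 3 or mutant control 1 or 2 (0.0716 to 0.111). Its difference in controls minus that in knockouts was -0.53 (adjusted p 0.0269). Ace, the angiotensin-converting enzyme, was at -0.19 and was not called (adjusted p 0.122).

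Chaperones of the endoplasmic reticulum fell in part, 5 of 28 with none higher (17.9% against 6.49% of all genes called, median -0.0849). Sdf2l1, a member of the chaperone network around BiP, read 10.19, 10.06 and 10.29 in the wild-type arrays and 9.51, 9.52 and 9.57 in the mutant arrays, a difference of -0.65 ± 0.10 (adjusted p 0.00363). Hyou1 (-0.47 ± 0.072), BiP itself (Hspa5, -0.31 ± 0.073), Dnajc3 (-0.24 ± 0.052) and the regulator Crebrf (-0.25 ± 0.062) fell, and Hsp90b1 was not called (-0.068). Hspa5 was lost without wild-type control 3 or mutant control 2 or 3 (0.0647 to 0.0948), and Dnajc3 and Crebrf without wild-type control 1 or mutant control 1 or 2, among others (up to 0.0707 and 0.141). In knockouts 9 of the 28 fell, while the count in the controls was 2 when their 6 arrays were fitted alone or mutant control 2 was left out, and 3 without wild-type control 1 or mutant control 1 or 3. Of 18 sterol synthesis genes 1 fell in controls, 5.56% of the list against 6.49% of all genes called and 3.33% called lower. It was the regulator Srebf2 (-0.22 ± 0.059), and 11 of the list fell in knockouts. The Srebf2 call was lost without most single arrays (up to 0.149). No immediate early gene of 32 and no ERK feedback gene of 21 was called by limma, with 4 of each at an unadjusted p under 0.05, and Fos read 8.74, 9.48 and 8.63 in the wild-type arrays and 9.10, 8.91 and 9.40 in the mutant arrays.

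Of 28 macrophage markers 2 rose and none fell in controls. The share of 7.14% was near the 6.49% of all genes called either way and above the 3.17% called higher. Of the 28 differences 24 were above 0, with a median of 0.155 against -0.0234 over all genes. The Fc receptor Fcgr3 read 8.72, 8.82 and 8.85 in the wild-type arrays and 8.97, 9.03 and 9.24 in the mutant arrays (0.29 ± 0.069) and Adgre1, the F4/80 antigen, read 9.09, 9.23 and 9.31 in the wild-type arrays and 9.37, 9.62 and 9.68 in the mutant arrays (0.34 ± 0.084). Both calls were lost without wild-type control 1 or 2 or mutant control 2 or 3 (up to 0.086 and 0.126). The chemokine Ccl2, which attracts monocytes, rose by 0.39 ± 0.082, with its call lost without wild-type control 2 or mutant control 1 (0.0516 to 0.0597), and Cxcl12 by 0.39 ± 0.069. The summed macrophage intensity of 30 genes overlapped, at 23324 to 28066 in wild-type and 23489 to 32013 in mutant arrays.

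In the knockouts the mutation went with lower macrophage markers, 13 of 28 called lower. Fcgr3 there read 9.87, 9.84 and 9.87 in the wild-type knockouts and 9.48, 9.36 and 9.36 in the mutant knockouts, and Adgre1 read 10.49, 10.31 and 10.50 in the wild-type knockouts and 9.89, 9.98 and 9.89 in the mutant knockouts. Their differences differed by 0.75 (adjusted p 0.00309) and 0.86 (adjusted p 0.00415), and 9 of the 28 were called in that test, all more positive in controls. Ccl2 differed by 0.80 (adjusted p 0.00573). The largest of the named differences between controls and knockouts was that of the chemokine Ccl8. Among controls it read 6.67, 6.86 and 7.05 in the wild-type arrays and 7.03, 7.01 and 7.02 in the mutant arrays. It read 8.58, 8.44 and 9.16 in the wild-type knockouts and 6.86, 7.07 and 7.19 in the mutant knockouts. Only the wild-type knockouts had a mean above the filter of 7.31, so Ccl8 was tested only through that group.

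Of 24 fibroblast genes 4 rose and 2 fell, 25% of the list against 6.49% of all genes: besides Col1a1 and Col3a1, S100a4 rose from 9.92, 9.89 and 9.91 to 10.46, 10.58 and 10.71 (0.68 ± 0.075) and the surface antigen Thy1 by 0.49 ± 0.11, and gelsolin (Gsn, -0.33 ± 0.077) and the scavenger receptor Scara5 (-0.45 ± 0.12) fell. Calls of Thy1, Gsn and Scara5 were each lost without wild-type control 1 or mutant control 2, among others (adjusted p up to 0.0881, 0.0876 and 0.153). Pdgfra (0.087) and Pdgfrb (-0.021) were not called. None of 25 endothelial genes, 26 adipocyte genes, 24 interferon-induced genes, 13 skeletal muscle genes, 11 lymphocyte genes, 11 nerve genes or 6 erythroid genes was called by limma. At an unadjusted p under 0.05 there were 4, 5, 0, 0, 2, 3 and 1 of them. The endothelial marker Pecam1 read 12.16, 12.02 and 12.21 in the wild-type arrays and 11.73, 11.69 and 12.09 in the mutant arrays and Cdh5 10.47, 10.46 and 10.74 in the wild-type arrays and 10.16, 10.45 and 10.75 in the mutant arrays, and adipocyte intensities varied more within than between the genotypes, Adipoq reading 7.41, 7.59 and 8.13 in the wild-type arrays and 7.05, 7.86 and 8.66 in the mutant arrays. Of 25 cardiac genes 1 was called, 4% of the list against 6.49% of all genes called and 3.33% called lower. It was Actn2, lower by 0.66 ± 0.16, with its call lost without wild-type control 1 or 2 or mutant control 1 or 2 (0.0763 to 0.0992). The cardiac myosin Myh6 read 7.83, 7.91 and 7.84 in the wild-type arrays and 8.06, 9.01 and 8.31 in the mutant arrays, highest in mutant control 2, and was not called (adjusted p 0.121). Summed intensity overlapped for 24 fibroblast genes (122730 to 133710 in wild-type, 130800 to 134610 in mutant arrays) and 26 endothelial genes (47267 to 53713 and 43219 to 52474). The B-cell markers Cd79a and Ms4a1 and the fat hormone gene Lep lay under the filter of 7.31. The part of these other cells in the matrix and cell division differences was not tested.

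Among 22 cartilage and bone genes 1 rose and 3 fell (18.2% against 6.49% of all genes called). Sox9, the cartilage transcription factor, read 9.85, 9.97 and 9.80 in the wild-type arrays and 9.16, 9.40 and 9.44 in the mutant arrays, a difference of -0.54 ± 0.076 (adjusted p 0.00215), and fell in knockouts too (-0.62). Gdf10 rose by 0.31 ± 0.074, and the pyrophosphate transporter Ank (-0.20 ± 0.055) and Msx2 (-0.25 ± 0.068) fell, with these 3 calls lost without several single arrays (up to 0.113, 0.168 and 0.146). In the oxidative stress list 1 of 29 rose, the peroxiredoxin Prdx1 (0.29 ± 0.071), and 3 fell, Nnt and the glutathione transferases Gstm1 (-0.25 ± 0.052) and Gstt1 (-0.40 ± 0.092). Together these are 13.8% of the list against 6.49% of all genes called. Of 29 growth factor signalling genes 2 rose and 1 fell, Igfbp2, an IGF-binding protein (0.64 ± 0.14), Vegfd (0.46 ± 0.12) and Bdnf (-0.24 ± 0.062). That is 10.3% of the list against 6.49% of all genes. Prdx1, Gstm1, Gstt1, Igfbp2, Vegfd and Bdnf were each lost without at least 3 single arrays. Igf1 (-0.16) and Igf2 (0.23) were not called.

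Across all genes the 2 measurements of the mutation, which share no array, overlapped in part. Of the 970 genes called in controls 203 were called the same way in knockouts, 93 higher and 110 lower, which is 20.9% of the controls' calls and 22.8% of the knockouts' calls. Over all genes 2.8% were called higher and 3.16% lower in knockouts. Another 18 were called in opposite directions, and 700 (72.2%) of the 970 had the same sign. The share with the same sign over all genes was not counted. Of the 970, 112 were also called in the test of the difference, 80 of the genes higher in controls and 32 of those lower. The called clock and heat shock genes had the same sign in both apart from Hspb8 (0.026 in knockouts), as had Kcnj15, P2rx1 and Cpz. The called cell division genes and collagens named above lay no higher than 0.20 in the knockouts.

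**Figure D4:**
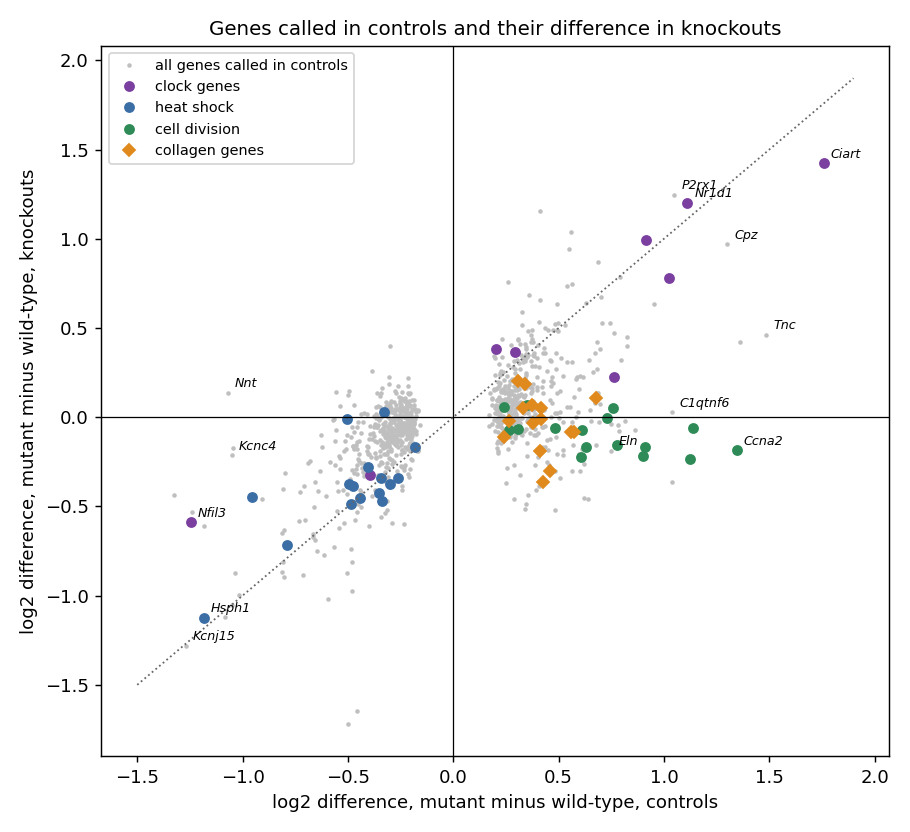
Log2 difference between mutant and wild-type in knockouts (vertical) against that in controls (horizontal) for the 970 genes called in controls. Colours mark called clock, heat shock, cell division and collagen genes, the dotted line marks equal differences, and Ciart (1.76 and 1.42) lies close to it while Ccna2 (1.35 and -0.18) and Tnc (1.49 and 0.46) lie below it.

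A targeted allele carries with it a stretch of the chromosome of the cells it was made in, so calls were counted by position. Fbn1 lies on chromosome 2, where 6.26% of tested genes were called, within the range of 5.13% to 8.74% over the chromosomes apart from Y, with 0 of 4 genes. Among the 50 tested genes on each side of Fbn1, in the gene order of GRCm38.p6, 9 of 100 (9%) were called, 7 higher and 2 lower. With 25 genes on each side it was 3 of 50 (6%), and with 100 on each side 22 of 200 (11%). The 9 are Ehd4, an endocytosis protein (0.51 ± 0.057), Fbln7, a fibulin (0.76 ± 0.10), Gatm, which makes a creatine precursor (0.68 ± 0.10), the condensin subunit Ncaph (0.57 ± 0.067), Ckap2l (0.45 ± 0.10), Adal (0.29 ± 0.058), Serf2 (0.21 ± 0.049), and, lower, the receptor kinase Tyro3 (-0.24 ± 0.057) and Map1a (-0.31 ± 0.081). Of these Ehd4, Fbln7 and Adal were called the same way in knockouts, at 0.33, 0.47 and 0.27. Ehd4 read 12.04, 12.01 and 11.84 in the wild-type arrays and 12.53, 12.45 and 12.44 in the mutant arrays, and Fbln7 read 9.62, 9.87 and 9.68 in the wild-type arrays and 10.27, 10.48 and 10.70 in the mutant arrays, both without overlap. Ckap2l, Serf2, Tyro3 and Map1a were lost without at least 3 single arrays each. Position and the biology of these genes cannot be told apart here.

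**Figure D5:**
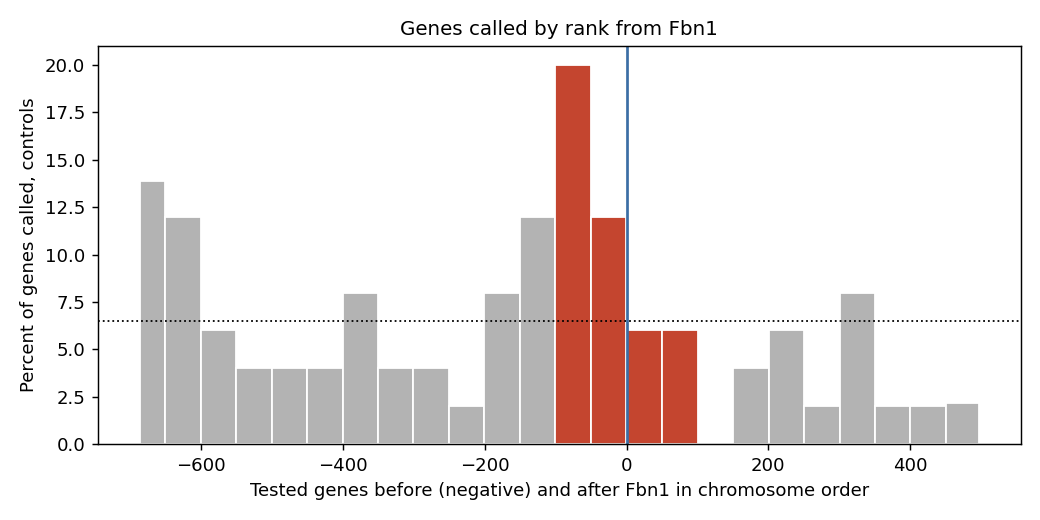
Percent of tested genes on chromosome 2 called in controls, in bins of 50 genes by rank from Fbn1 (vertical line), with shorter bins at both ends. Red bins are the 100 genes on each side, the dotted line is the 6.49% of all genes, and the highest bin, ranks -100 to -51, holds 10 of 50 (20%).

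How many genes were called rested on single arrays. It dropped from 970 to 349 when mutant control 2 was left out, to 479 for wild-type control 2, to 532 for mutant control 1 and to 554 for wild-type control 3. Fitted on the 6 control arrays alone, 480 genes were called, 449 of them among the 970. Of the 137 called genes that the rule for named genes covers, Ccn2 included, 72 remained called when any single array was left out.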

How the data were processed

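RNA of the ascending aorta was hybridised to 12 Affymetrix whole-transcript arrays. The deposited values are linear intensity after RMA in Partek 6.4, per the submitters' processing notes, with 1 column per array, 0 columns without a sample and 0 pairs of identical arrays. Log2 was taken of these intensities. The platform annotation names 23410 of 35556 probe sets, and the 21789 with 1 symbol gave 19938 genes, each read from whichever of its probe sets had the highest mean. The 1621 probe sets with several symbols, such as the one that Hspa1a and Hspa1b share, and the 12146 with none were left out. Genes with a mean under the 25th percentile (log2 7.31) were not tested, which left 14944.

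The 12 arrays were fitted together in limma 3.58.1 (R 4.3.3) with a mean per group, using lmFit and eBayes, which left 8 residual degrees of freedom and took 4.54 more from the prior. Contrasts were mutant against wild-type among controls, the same among knockouts, which shares no array with the first, and the difference of both. Tests were two-sided, adjusted over all genes by Benjamini and Hochberg, with a threshold of 0.05. The fit was tested on simulated data with independent noise in each gene and array. Such data hold no shift shared by many genes, like that of the clock scores, so they cannot check for it. No detection calls were used. The number of arrays limits the precision.

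Named genes are the 15 largest increases and 15 largest decreases called without overlap (predicted genes, receptors of smell and Mir or Snor symbols left out), up to 6 called and 2 defining members of each of 37 lists, all clock, heat shock and cold-induced genes, the 5 largest differences of the effects each way, Tgfbr2, and called genes among the 50 on each side of Fbn1. Markers of smooth muscle and brown fat were fixed as cell markers, and Ccn2, Mettl24, Prkar2a and Kctd16 were named after their values were seen. The comparison, its members and the lists were chosen with earlier results of these data known. Alternatives covered the filter, scaling, probe sets, variance model, array weights, arrays fitted, the title numbers as a block, clock, heat shock and adipocyte scores as covariates and each array left out. Promoter windows were matched by symbol to RefSeq (GRCm38.p6).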

Additional observations from a re-analysis of the deposited data

Results flagged for a closer look

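The difference between mutant and wild-type was itself different in controls and in knockouts for 221 genes by the limma test of that difference. The 34 genes named for the comparisons that are among them and 1 expressed sequence follow, each with the difference in controls minus that in knockouts on the log2 scale.

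Cell division genes were more positive in controls, Ccna2 by 1.53, Ccnb2 by 1.36, Mki67 by 1.20, Top2a by 1.08, Kif11 by 0.93, Foxm1 by 0.69 and Ncaph by 0.46. The expressed sequence D17H6S56E-5 was more positive by 1.40. Among matrix genes and proteases, Tnc was more positive by 1.02, Adamts12 by 0.94, Eln by 0.94, Ctsk by 0.81, Col15a1 by 0.79, Col4a5 by 0.76, Col3a1 by 0.64, Col5a2 by 0.60, Col1a1 by 0.57, Col14a1 by 0.41 and Fstl1 by 0.33, and Timp1, the metalloproteinase inhibitor, by 1.26. The secreted C1qtnf6 was more positive by 1.01, Igfbp2 by 1.10 and S100a4 by 0.59. Immune genes were more positive in controls, Ccl8 by 1.85, Adgre1 by 0.86, Ccl2 by 0.80 and Fcgr3 by 0.75.

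More negative in controls were Rasl10b (-0.87), the small RNA Scarna17 (-0.86), Kcnc4 (-0.84), the glucose transporter Slc2a4 (-0.84), Kcnk3 (-0.74), Npr1 (-0.53), Sparcl1 (-0.37) and Gstm1 (-0.33). Timp1, Ccl8, Scarna17 and Slc2a4 were not called in the controls themselves. Ccl8 passed the filter only through the wild-type knockouts.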

How the results depend on the processing

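The 970 calls became 1568 with array weights (710 higher, 858 lower), 480 with the 6 control arrays alone (235 and 245), 2 with the clock score as covariate (1 and 1) and 0 with the heat shock score. Leaving out single arrays gave 349 to 1073 (173 to 498 higher, 176 to 575 lower). Without the filter there were 852, with quantile normalization 1180 (42.6% higher), with arrays centred on their medians 954 (40.7% higher, against 48.8%). Knockouts had 1687 calls with weights, 8 with the clock score, 8 with the heat shock score and 382 to 1019 with an array left out in place of 890, and the difference of effects 469 with weights and 107 to 202 in place of 221.

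With an array left out, called members ranged from 1 to 7 for the Per and Dbp phase, from 12 to 16 for heat shock, from 10 to 17 for cell division, from 5 to 5 for fibrillar collagens, from 5 to 9 for basement membrane and from 2 to 6 for endoplasmic reticulum stress. All 6 counts were 0 with either score as covariate. The scores are built from the clock and heat shock members themselves, so a list's loss under its own score says nothing further. Cell division had 7 members with genes under the median left out, since fewer were tested, and with the control arrays alone basement membrane had 5 and endoplasmic reticulum stress 2.

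Over all genes, same-number control pairs deviated together with correlations of 0.000132 to 0.153, and 4 of 6 control arrays correlated best with their own number. Whether the numbers in the titles mark pairs was not tested, and the main fit used no pairing. With the number as a replicate block 867 genes were called, 766 of them among the 970, and 8 genes of the Per and Dbp phase in place of 7. The clock genes shared a pattern by number, the array numbered 3 having the highest clock score in each of the 4 groups, as was seen after the data were examined.

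Of all 970 called genes, 932 kept their direction with the clock score and 828 with the heat shock score. The named called genes whose differences changed sign follow. The cause was not tested. With the clock score these were Ciart (-0.25), Nr1d1 (-0.34), Bhlhe41 (-0.16), Bhlhe40 (-0.39), Kcnk3 (-0.032), P4ha2 (0.076), Omd (0.11) and Scara5 (0.080). With the heat shock score they were Ccna2 (-0.11), Mki67 (-0.12), Top2a (-0.065), Kif11 (-0.12), Nusap1 (-0.12), Bhlhe41 (-0.25), Bhlhe40 (-0.47), Ccn4 (-0.017), Fstl1 (-0.018), Col5a1 (-0.024), Col6a3 (-0.034), Col6a6 (-0.085), Nfil3 (0.24), Gmnc (0.14), Fibin (0.00048), Hspa1a (0.52), Hspa1l (0.20), Ahsa2 (0.0066), Dnaja4 (0.014), Chordc1 (0.086), Omd (0.33), Gsn (0.11), Actn2 (0.54), Sox9 (0.0032), Ank (0.00064) and Ccn2 (0.26). Ciart, Nr1d1, Bhlhe41 and Bhlhe40 are themselves part of the clock score. Hspa1a, Hspa1l, Ahsa2, Dnaja4 and Chordc1 are part of the heat shock score. Their change under their own score therefore says nothing further. Of 137 called genes, 70 were called under every alternative apart from the 2 scores, and 67 were not called under at least 1 other.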
